A study of Mus musculus with 8 samples.

Results

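The 6 samples of normal skin in this mouse array series carry titles made of a number and a letter, A or B, and the comparison here is between the letters. They were taken by their label of normal skin and split by that letter, which gave 3 samples titled A and 3 titled B, 6 of the 8 samples of the series. All mice were of strain C57BL/6N. Mutant097A, Mutant097B, Mutant113A and Mutant113B came from Cchcr1 mutants, whose alleles the labels do not describe further, and Wild001A and Wild001B came from wild type mice. The other 2 samples, Mutant097S and Mutant113S, are hair loss skin of Cchcr1 mutants and were used only for description. The labels give no age or sex, do not explain the letters, and do not say that a number stands for an animal, so p-values measure the spread between these samples, which may be technical. The question was whether the letters mark skin site.

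Skin keeps a record of where on the body it lies. Fibroblasts of the dermis continue to express the transcription factors that patterned the embryo, above all Hox genes, which follow the head-to-tail axis in the order of their paralogue groups, and T-box genes, of which Tbx5 marks the forelimb field and Tbx4 the hindlimb field. Zic genes encode zinc finger factors of dorsal midline structures and of the dorsal somite, from which dermis of the back arises. Tbx15 is known for its part in the boundary between dark dorsal and pale ventral coat, Tbx3 for limb and mammary patterning and Hand2 for limb and heart patterning.

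A few of these genes differed in the same direction in all 3 pairs. Zic1 and its neighbour Zic4 were higher in B in each pair, as were Hoxb8 and Hoxb9, and Tbx5, Tbx3, Tbx4 and Hand2 were higher in A, though Zic4, Tbx4 and Hand2 lay near the background of the arrays. Tbx15, Hoxc6 and Hoxa7 differed little in the mean. Across all 29563 probes tested, however, the paired limma fit called 0 probes at a Benjamini-Hochberg adjusted p under 0.05 (0% of those tested), with 0.262 as the smallest adjusted p. A limma p below 0.05 before adjustment was reached by 1443 probes (4.88%), 770 with A higher and 673 with A lower, and by 543 without the title number as a block. Hence every difference below is given by its values, and none of them passed the test in that fit.

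The stretches before the starts of 3 of these genes are shown because Zic1 and Zic4 lie head to head and both stood higher in B, whereas Tbx4 stood higher in A. RefSeq (GRCm38.p6) puts the starts of Zic1 and Zic4 3204 bases apart on chromosome 9, on opposite strands. Each sequence is the 150 bases before the start, 5′ to 3′ on the strand of the gene. Zic1 is from chr9:91365769-91365918 (minus strand), Zic4 from chr9:91368822-91368971 (plus strand) and Tbx4 from chr11:85896615-85896764 (plus strand). Capitals mark matches on either strand to the GC box GGGCGG, the CCAAT box or the TATA motif TATAAA.
Zic1: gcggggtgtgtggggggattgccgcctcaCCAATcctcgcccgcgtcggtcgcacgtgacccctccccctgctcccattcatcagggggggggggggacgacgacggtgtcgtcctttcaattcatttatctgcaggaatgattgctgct
Zic4: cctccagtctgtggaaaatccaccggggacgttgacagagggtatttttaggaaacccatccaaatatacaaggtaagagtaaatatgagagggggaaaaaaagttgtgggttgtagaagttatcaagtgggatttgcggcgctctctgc
Tbx4: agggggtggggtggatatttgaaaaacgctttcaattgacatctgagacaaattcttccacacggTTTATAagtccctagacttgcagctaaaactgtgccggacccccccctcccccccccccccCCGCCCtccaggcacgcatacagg
Within 250 bases before the start, Zic1 held 2 GC boxes and 2 CCAAT boxes, Zic4 held 0 matches to any of the 3 motifs, and Tbx4 held 1 GC box and 1 TATA motif. Of 32817 promoter windows of that length, 32.7% held the GC box, 33.8% the CCAAT box and 12.4% the TATA motif. A match is a description of the letters and no binding was measured. The table used here did not hold Tbx5, Tbx3 or Hoxb9.

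Levels are log2 signals relative to the 75th percentile of the array, so that 0 stands for a bright probe and about -6 for the floor. Array signal at that percentile ran from 83.1 (Wild001B) to 172 (Mutant113B) on the 6 arrays, and 25512 to 29496 probes were well above background by the scanner software's own mark. All arrays sat on 1 slide and came from 1 scan. In each pair the A array lay 1 slide column to the right of the B array, so the letter and this step in column cannot be told apart. Markers of skin were bright in both letters, with Krt5, a keratin of basal epidermis, between 8.79 and 9.01 and Dcn, a matrix proteoglycan of the dermis, between 7.84 and 9.41. Cchcr1, the mutated gene, lay between -0.07 and 0.32 on the 6 arrays, with no separation of mutant from wild type samples. That probe reports transcript level and does not check an edited allele.

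Zic1 had the largest difference. Its level in B was 2.51 in Mutant097, 1.34 in Mutant113 and 2.70 in Wild001, and in A it was -4.21, -6.27 and -3.32. The letters did not overlap, and of the A arrays only Wild001A was well above background. B was at least 63.9-fold higher in Mutant097, at least 43.7-fold higher in Mutant113 and 64.7-fold higher in Wild001, the first 2 values being bounds set by the lowest signal above background on the A array. SE, here and below, is the moderated standard error of limma, which borrows spread from the other probes. For Zic1 the plain SD of the 3 pair differences was 0.80. The mean difference, A minus B, was -6.78 ± 0.33 (SE, n = 3 pairs, limma adjusted p = 0.262). Without Mutant113 it was -6.37 with an adjusted p of 0.0181 in limma, the single probe called there. With moderation by intensity trend and outlier-robust variance, limma gave an adjusted p of 0.0137. With a normexp background correction the difference was -3.42 with a limma adjusted p of 5.12e-09. The normexp fit of the letters, here and below, had 18.8 prior degrees of freedom against 2.69 in the main setting, so its p-values are not directly comparable. Quantile normalization, the authors' matrix, no filter on dim probes, the fit to all 8 arrays and the fit without the block each called 0 probes. A second probe for Zic1 differed far less. It read -2.83, -3.24 and -2.94 in A and -2.41, -3.01 and -1.69 in B, in the same order of pairs, all well above background.

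Zic4 was dim throughout. It was not well above background on the 3 A arrays (-5.34, -6.02 and -5.71), and 2 of the 3 B arrays passed that mark (-2.86, -3.35 and -3.63). B was at least 1.41-fold higher on the group means (limma adjusted p = 0.296).

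Tbx5 had the reverse pattern. The 3 A arrays read -0.76, -0.78 and -0.76 and were all well above background, while the B arrays read -5.80, -4.96 and -3.27 and none of them was. A was thus at least 7.60-fold higher on the group means (limma adjusted p = 0.609).

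Tbx3, the neighbour of Tbx5 in the genome, was measured on all 6 arrays. It stood at 1.83, 2.42 and 1.93 in A and at 0.21, 0.48 and 0.17 in B, again without overlap. A was 3.08-fold, 3.84-fold and 3.38-fold higher in Mutant097, Mutant113 and Wild001. The mean difference was 1.77 ± 0.16 (SE, n = 3 pairs; limma adjusted p = 0.472), and 0.000819 was the adjusted p with the normexp correction.

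Tbx4 and Hand2 were close to background even where they were higher. Tbx4 read -3.90, -2.47 and -2.98 in A, where 2 of 3 arrays were well above background, and -5.96, -4.66 and -4.98 in B, where none was. Its bound was at least 1.49-fold higher in A. Hand2 read -3.36, -4.25 and -3.48 in A and -6.22, -6.46 and -5.31 in B, with 2 and 0 arrays above background. On the group means its fold could not be bounded above 1, while in Mutant097 A was at least 1.46-fold higher. Zic1, Zic4, Tbx4, Tbx5 and Hand2 were singled out after their values had been seen. The first Zic1 probe and the probes of the other 4 genes were not above background on all 6 arrays.

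**Figure D1:**
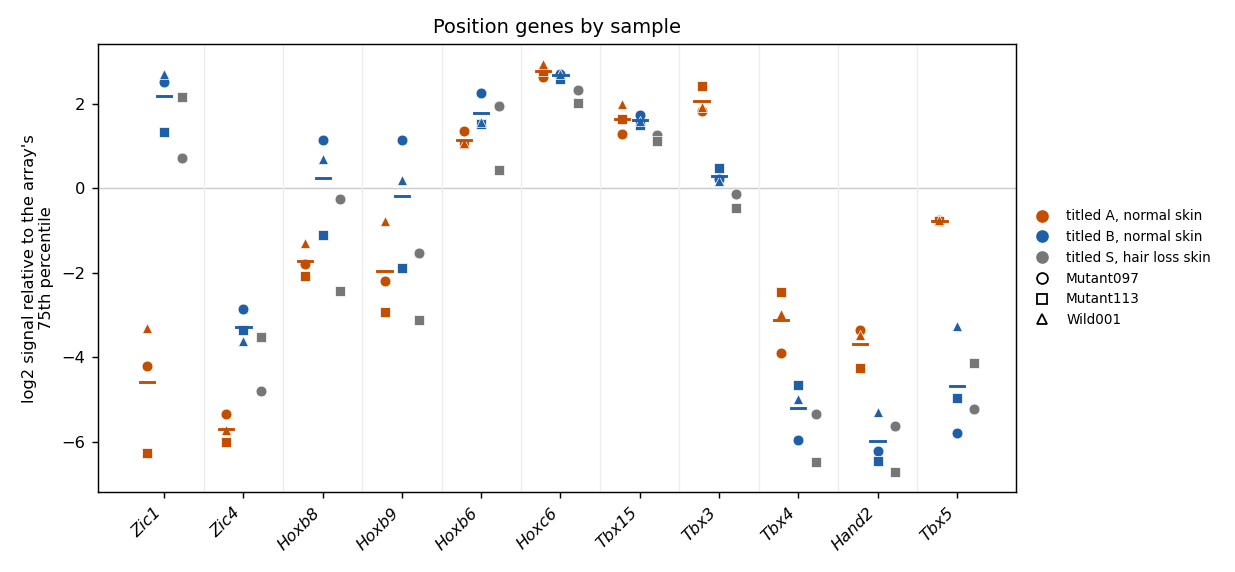
Level of 11 position genes (log2 signal relative to the 75th percentile of the array) in each sample, with A in orange, B in blue and hair loss skin S in grey; marker shapes give the title number and bars the mean of 3 samples. A and B do not overlap for Zic1, Zic4, Hoxb8, Hoxb6, Tbx3, Tbx4, Hand2 and Tbx5, while Hoxc6 and Tbx15 lie together, and levels near -6 are at the floor of the arrays. The genes were picked for display, some after their values were seen, and 5.44% of all 14550 genes tested did not overlap.

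Hox genes are given by paralogue group, and the groups were not compared by a test. Of the 11 Hox genes of groups 5 to 8 tested, 6 were lower in A in all 3 pairs and 0 were higher in all 3. Over all 14550 genes tested, 9.48% were lower in A in all 3 pairs and 15.5% were higher in all 3. The median A minus B was -0.40 for groups 5 to 8, -0.15 for the 10 genes of groups 1 to 4 and -0.01 for the 8 genes of groups 9 to 13, against 0.03 over all genes. By pair, in the order Mutant097, Mutant113 and Wild001, the medians were -0.55, -0.21 and -0.13 for groups 5 to 8, -0.10, 0.16 and -0.45 for groups 1 to 4 and -0.38, 0.44 and -0.43 for groups 9 to 13. In groups 5 to 8, 0 of 11 genes were higher in A in Mutant097, 4 in Mutant113 and 5 in Wild001. Without Mutant113 the median of groups 9 to 13 was -0.26. Taken over the 51 position genes tested of 68 listed, 12 were lower and 6 higher in A in all 3 pairs, and 0 passed the test.

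Hoxb8, a gene of trunk identity, had the largest difference among Hox genes. It was at -1.79, -2.08 and -1.30 in A and at 1.14, -1.11 and 0.70 in B. The groups did not overlap, although Mutant113B came close to the A arrays, and B was 7.64-fold, 1.95-fold and 4.0-fold higher in Mutant097, Mutant113 and Wild001. The difference was -1.97 ± 0.40 (SE, n = 3 pairs; limma adjusted p = 0.793). Hoxb9, next to it in the cluster, read -2.20, -2.93 and -0.77 in A and 1.15, -1.89 and 0.20 in B. Here Mutant113B lay below Wild001A, so the letters overlapped, with a difference of -1.79 ± 0.53 (SE, n = 3 pairs; limma adjusted p = 0.973).

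Smaller differences of the same sign ran along the Hoxb cluster. The mean difference was -0.40 for Hoxb7, -0.63 for Hoxb6 and -0.52 for Hoxb5, each lower in A in all 3 pairs, but 0.13 for Hoxb4. Hoxa5 and Hoxa6 were also lower in A in every pair, by -0.39 and -0.41. In contrast Hoxc6, at 2.60 or above on all 6 arrays, differed by 0.11 and Hoxa7 by 0.02. Hoxc4 was the 1 Hox gene higher in A in all 3 pairs, by 0.43. Hoxc13 works in the hair follicle as well as in the tail region. It was lower in A by 1.11, 0.94 and 0.70 in the 3 pairs, a mean difference of -0.92 ± 0.17 (SE, n = 3 pairs; limma adjusted p = 0.737), and it stood at -1.20 and -0.50 in the wild type samples against 1.37 to 2.81 in the mutant ones.

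Several other position genes lay together. Tbx15 read 1.29, 1.64 and 2.00 in A and 1.74, 1.50 and 1.59 in B, a difference of 0.03 ± 0.22 (SE, n = 3 pairs). Prrx1, a factor of limb and body wall mesenchyme, differed by 0.09, and Meis1, a Hox cofactor, by 0.02. Pitx1, known from the hindlimb, was lower in A in Mutant097 and Wild001 (-1.24 and -0.98) and higher in Mutant113 (0.17). Tbx2, the paralogue of Tbx3 that adjoins Tbx4, was above background throughout and differed by -0.20.

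Hair loss skin lay nearer to B at some of the genes that differed between the letters. Zic1 stood at 0.72 in Mutant097S and 2.16 in Mutant113S, Tbx5 was not above background in either (-5.23 and -4.14), and Tbx3 read -0.12 and -0.48, below every A and every B array. Tbx4 and Hand2 were likewise not above background in hair loss skin. Other genes were mixed. Zic4 read -4.80 in Mutant097S and -3.53 in Mutant113S, 1 of the 2 above background. Hoxb8 was at -0.24 in Mutant097S and at -2.43 in Mutant113S, below every A and every B array. Serpinb6d, a protease inhibitor gene, was at 1.70 in Mutant097S and at 5.53 in Mutant113S, close to Mutant113A at 5.26. Over the 51 position genes the mean absolute distance of Mutant113S was 1.15 to the A and 0.796 to the B sample of its number, and that of Mutant097S was 1.06 and 0.997. Mutant113S was nearer to A for 21 and to B for 30 of these genes, and Mutant097S was nearer to A for 29 and to B for 22. Over all 14550 genes the distances were 0.366 and 0.296 in Mutant113 and 0.486 and 0.466 in Mutant097. Of the 193 genes with a mean difference between the letters of at least 1 and the same sign in all 3 pairs, Mutant097S lay nearer to B for 144 and Mutant113S for 115. Over all 14550 genes Mutant097S lay nearer to B for 7669 and Mutant113S for 8637. These genes were chosen on the same A and B arrays, so the counts for them are a description only.

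Sbk3 and 2 genes known from striated muscle, Sln and Actc1, had the largest differences among genes above background on all 6 arrays. Sbk3, a kinase gene, read 1.42, 2.75 and 3.36 in A and -2.04, -2.09 and -0.63 in B. It did not overlap and was 11-fold, 28.6-fold and 15.9-fold higher in A (4.10 ± 0.30, SE, n = 3 pairs; limma adjusted p = 0.284). Sln encodes sarcolipin, an inhibitor of the calcium pump of muscle. It read 2.98, 4.50 and 4.82 in A and 0.12, 2.46 and 0.78 in B, without overlap (2.98 ± 0.41, SE, n = 3 pairs; limma adjusted p = 0.609). Actc1, the cardiac actin that is also made in developing skeletal muscle, read 0.07, 2.27 and 3.89 in A and -2.90, -0.26 and 1.14 in B. It was higher in A within each pair by similar amounts, 7.81-fold, 5.78-fold and 6.76-fold (2.75 ± 0.17, SE, n = 3 pairs; limma adjusted p = 0.262), although Mutant097A lay below Wild001B.

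Muscle genes in general did not follow these. Of 22 skeletal muscle genes tested, 1 was higher in A in all 3 pairs, namely Sln, and 4 were lower in all 3, and the list medians were -0.91, 0.19 and 0.29 in Mutant097, Mutant113 and Wild001. Acta1, the main actin of muscle, differed by -0.05 and Myh4, a fast myosin heavy chain, by -0.04. Tnni1, the slow troponin I, was lower in A by 1.66, 1.36 and 0.85. Myh7, the slow myosin heavy chain, was lower too, by 0.09, 3.49 and 1.16, and Mutant113B with a level of 0.60 stood apart. In hair loss skin Sbk3 (-3.09 and -4.62), Sln (-0.12 and -2.64) and Actc1 (-1.44 and -2.60) were all low.

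The remaining large differences were of mixed kind. Serpinb6d was higher in A (3.13, 5.26 and 3.70 against 0.48, 2.98 and 1.03; limma adjusted p = 0.271). Its neighbour in the same gene family, Serpinb6e, was lower (0.50, 3.55 and 1.25 against 2.62, 4.26 and 3.84). The members are close copies, and whether their probes share targets was not tested. Jchain, which joins subunits of secreted IgA and IgM, was near 0 on the 3 A arrays (0.19, 0.41 and 0.35) and at -2.71, -1.61 and -1.10 in B. Scg3 of secretory granules, Ctxn3, Zfp94 and Lgi2 were higher in A by 1.48 to 1.63 on average. Cxcl13, a chemokine for B cells, was lower in A in every pair and did not overlap (-2.71, -3.42 and -2.44 against -2.10, -1.24 and -0.53).

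Some differences were uneven between the pairs. Fcer1g, the common gamma chain of Fc receptors, was at -1.14 in Mutant097A and between 3.98 and 4.98 on the other 5 arrays. Slc38a5, an amino acid transporter gene, differed by -4.50 in Mutant113 against -0.90 and -1.14 in the other 2 pairs. Wfdc12 was lower in A by 2.89 and 2.50 in Mutant097 and Wild001 and by 0.22 in Mutant113.

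**Figure D2:**
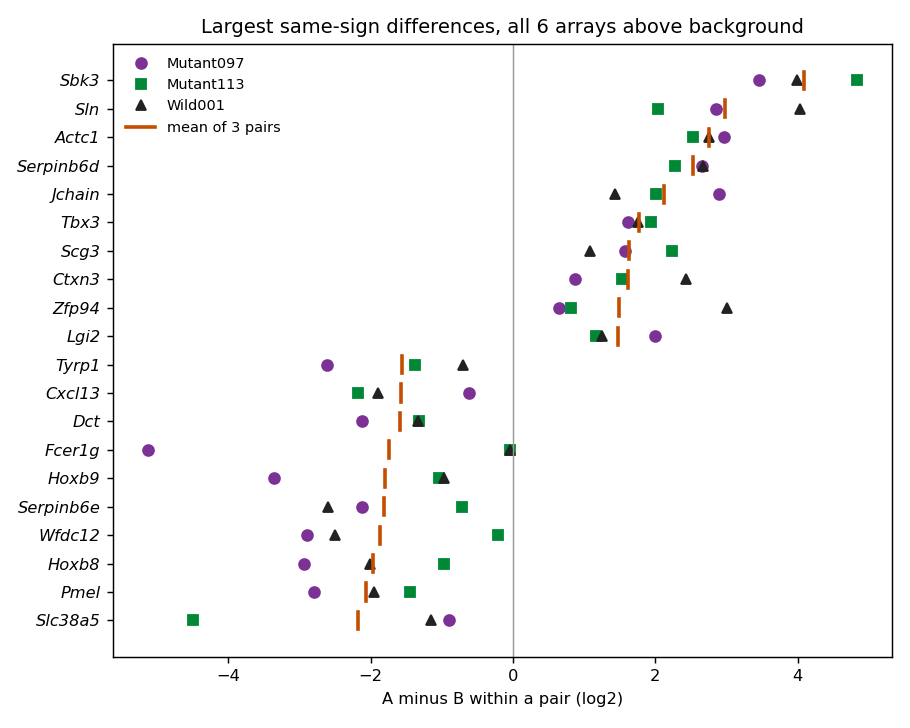
A minus B (log2) within each pair for the 10 genes with the largest mean difference in either direction among those above background on all 6 arrays with the same sign in all 3 pairs. Points are pairs and orange bars the mean of 3; Actc1, Serpinb6d and Tbx3 have closely spaced pairs, whereas Fcer1g, Slc38a5 and Zfp94 each take most of their mean from 1 pair.

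Melanocyte genes were lower in A. Of 10 tested, 8 were lower in all 3 pairs, and 6 of the 10 were above background on all 6 arrays. The list median was -1.54, with -2.18 in Mutant097, -1.31 in Mutant113 and -0.77 in Wild001. Pmel, whose product forms the fibrils of the pigment granule, read 0.85, 0.73 and -2.55 in A and 3.64, 2.18 and -0.60 in B. Dct, an enzyme of melanin synthesis, read 3.38, 2.86 and 0.95 in A and 5.50, 4.18 and 2.28 in B. For both genes each A sample lay below the B sample of its number, while the groups overlapped, since the wild type pair lay lowest. The differences were -2.07 ± 0.30 for Pmel and -1.59 ± 0.23 for Dct (SE, n = 3 pairs; limma adjusted p = 0.609 for both). With the normexp correction the adjusted p was 0.00356 for Pmel and 0.00381 for Dct, and the list median was -0.64.

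Further pigment genes went the same way with less agreement. Tyrp1 was lower in A by 2.61, 1.37 and 0.70, and Tyr, the rate-limiting enzyme of melanin synthesis, by 1.02, 0.53 and 0.79. Mitf, the master regulator of the lineage, differed by -0.31, -0.33 and 0.01, and Mlana by -0.58, -1.30 and 0.00, so that both were near 0 in Wild001. Hair loss skin lay with B here, at 3.40 and 2.15 for Pmel and 5.15 and 4.22 for Dct. In bulk skin, fewer melanocytes and less RNA per melanocyte cannot be told apart.

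The inner root sheath, the sleeve that guides the growing hair, gave the same picture. Of its 10 genes 9 were lower in A in all 3 pairs, with a list median of -0.99 and pair medians of -1.30, -0.94 and -0.76. Krt71, a keratin of the sheath, read 7.98, 8.94 and -1.69 in A and 9.09, 9.52 and 1.28 in B. Tchh, trichohyalin, read 5.93, 7.80 and -0.72 in A and 7.17, 8.44 and 0.02 in B. Krt27 was lower in A by 1.55, 1.15 and 1.82 and Tchhl1 by 0.88, 1.03 and 1.16. For Krt27, Wild001A was not above background, so B was at least 3.46-fold higher there. Of the 10 genes, 6 were above background on all 6 arrays, and Krt28 differed by only -0.009 in Wild001. The wild type pair was far below the mutant pairs for this list, and Krt26 was not above background in either Wild001 sample.

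Other follicle genes were less uniform. Among hair matrix regulators 4 of 10 were lower in A in all 3 pairs, including Lef1, a Wnt effector (-1.27, -0.30 and -1.56), Dlx3 (-0.40, -0.49 and -1.30) and Msx2 (-1.37, -0.69 and -0.16). Of the 13 hair shaft keratins tested, 3 were lower in all 3 pairs, and the list median was 0.13 in Mutant097, -0.56 in Mutant113 and -0.81 in Wild001. Only 2 of the 13 were above background on all 6 arrays. The Wild001 median thus includes differences between dim signals, such as Krt33a at -4.47 in A and -3.33 in B. Follicle stem cell genes had a median of 0.10, with 3 of 10 higher and 3 of 10 lower in all pairs, Krt15 being higher by 0.29.

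**Figure D3:**
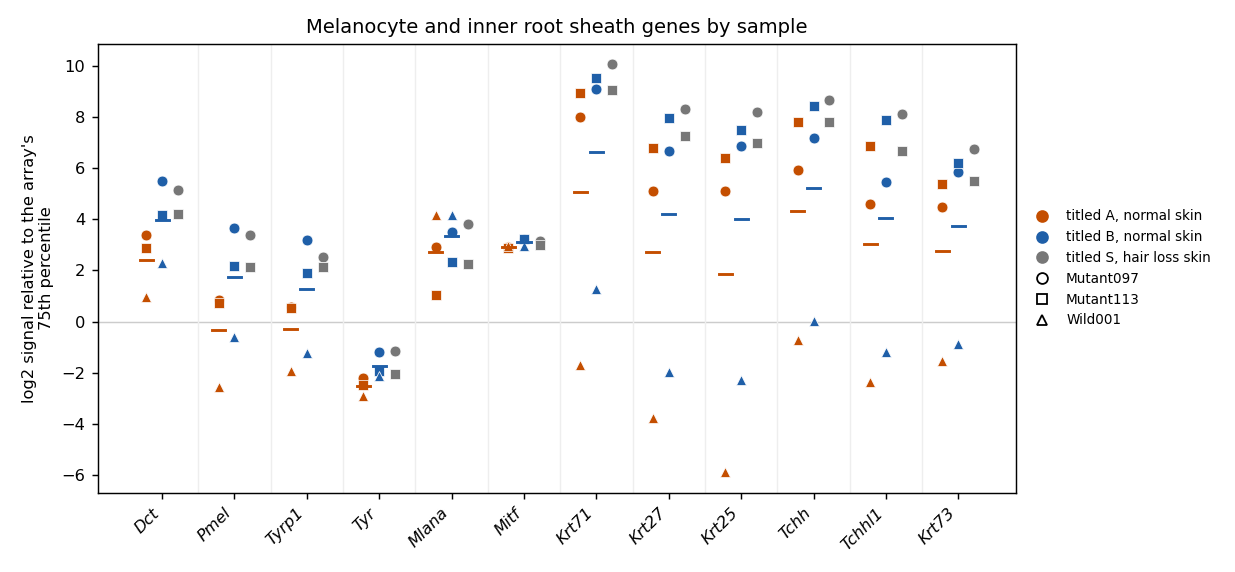
Level of 6 melanocyte genes (left) and 6 inner root sheath genes (right) in each sample (log2 signal relative to the 75th percentile of the array), with A in orange, B in blue and hair loss skin S in grey; marker shapes give the title number and bars the mean of 3 samples. Within a number the A sample lies below the B sample for most genes, and the Wild001 samples lie far below the mutant ones for the sheath keratins.

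Genes of the interferon response and of antigen presentation had medians above 0. For the interferon response 6 of 11 genes were higher in A in all 3 pairs and 0 lower, with a median of 0.49 and pair medians of 0.69, 0.10 and 0.63. Oasl2 and Ifit3, both interferon-induced, were higher by 0.76 and 0.43. For antigen presentation the counts were again 6 of 11 and 0, with a median of 0.31, as for H2-Aa (0.37) and Psmb8 (0.31). The other immune lists were mixed. T and NK cell genes had a median of 0.09 (0.56, 0.13 and -0.26 in the pairs), myeloid and mast cell genes 0.09 (0.41, -0.050 and 0.11), and the 3 genes tested of B cells and lymph node -0.26 (0.38, -0.14 and -0.31).

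Immediate early genes, which respond within minutes to stimulation of cells, were higher in A in all 3 pairs for 5 of 10, with a median of 0.38, among them Nr4a1 (0.25, 0.75 and 0.70) and Egr1 (0.07, 0.33 and 0.81). Genes of the interfollicular epidermis had 5 of 11 higher and 0 lower, with a median of 0.23, including Krt10 (0.31) and Flg2 (0.58). Dermal matrix genes had a median of -0.06, and Fn1, fibronectin, was higher in A by 1.17, 1.27 and 0.06. White fat genes had 5 of 12 lower and 0 higher in all pairs with a median of -0.25, of which Plin1 was lower by 0.56, 0.25 and 0.40.

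Zic1 also serves as a marker of classical brown fat, a tissue of the upper back. Of the 7 brown fat genes tested of 8 listed, 2 were lower in A in all 3 pairs, Zic1 itself and Ppargc1a, a coactivator of mitochondrial genes (-0.42, -0.018 and -0.29). Cidea differed by 0.25, Cox8b by -0.13 and Dio2 by 0.03, and the list median was 0.03, with pair medians of -0.54, -0.47 and 0.25. Of the mammary gland list 2 of 9 genes were tested and of the cartilage and bone list 2 of 9. In the list for sole, tail and mouth epithelium, Krt9, the keratin of footpads, lay between -3.47 and -2.34 on all 6 arrays and Krt24 was lower in A by 0.52, 1.50 and 1.31. The Y-linked genes Ddx3y and Eif2s3y and the Xist RNA had the same mark for above or not above background in A and B of each number, 3 of 3 pairs. Xist was above background only in Mutant113 (1.15 in A and 1.12 in B). Ddx3y and Eif2s3y were at the floor there and above background in Mutant097 and Wild001. By these genes Mutant113 read as female and Mutant097 and Wild001 as male, so the numbers differ in sex while the letters do not.

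**Figure D4:**
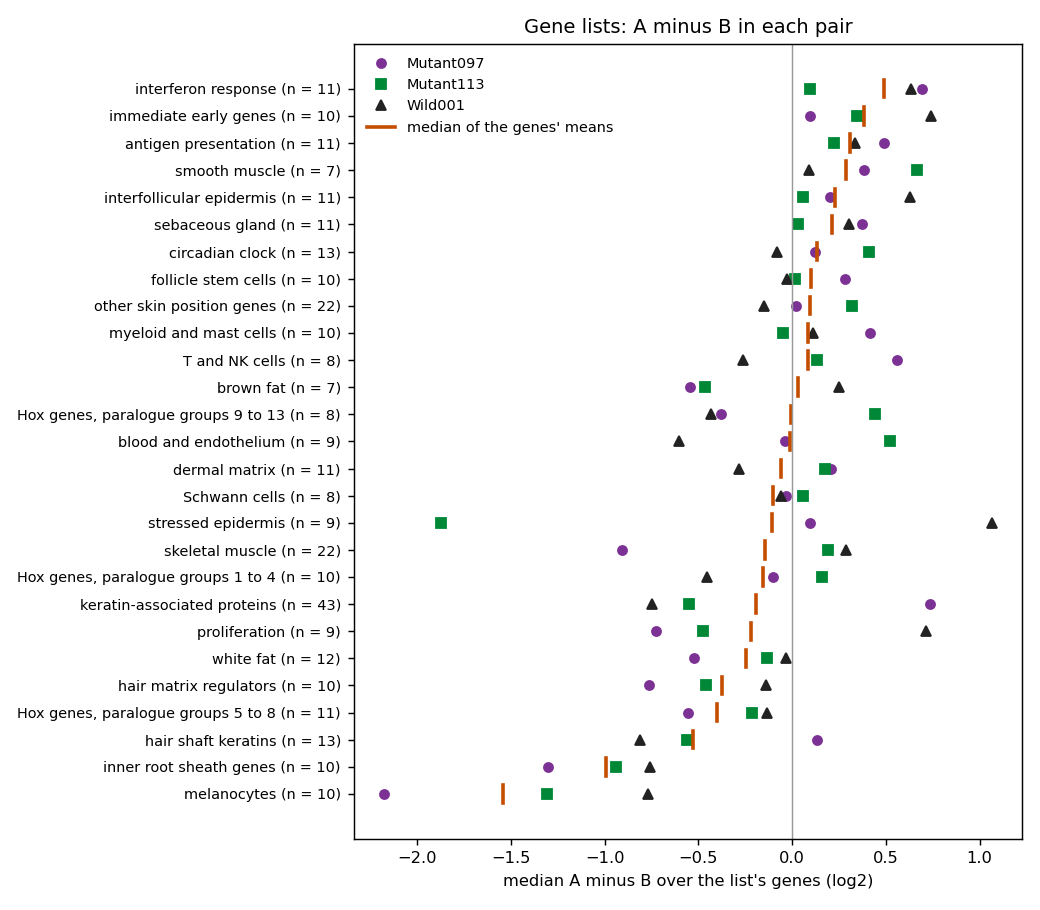
Median A minus B (log2) over the genes of each list with at least 5 genes tested, by pair (points) and as the median of the genes' mean differences (orange bars). Melanocyte and inner root sheath genes lie below 0 in all 3 pairs, whereas proliferation and stressed epidermis lie on opposite sides of 0 in different pairs.

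The 3 pairs had little else in common. Across the probes tested, A minus B in Mutant097 had Pearson's r of 0.19 with Mutant113 and -0.12 with Wild001, and Mutant113 had 0.02 with Wild001. These are descriptions across probes of the same slide, not tests. The spread of A minus B was 0.53 in Mutant097, 0.41 in Mutant113 and 0.65 in Wild001 (SD over probes). In Wild001, whose B array had the lowest signal, 844 probes were higher and 2217 lower in A by at least 1, against 907 and 610 in Mutant097 and 485 and 400 in Mutant113. Of the genes tested, 792 had all A arrays above or all below the B arrays, 5.44% of 14550.

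Each pair had its own extremes. In Mutant097 several keratin-associated protein genes, which encode the matrix of the hair shaft, were much higher in A, with Krtap6-2 at 3.78 against -2.12, Krtap14 at 2.07 against -3.52 and Krtap16-3 at 6.57 against 1.04. In Mutant113 the same genes differed by -0.41, -0.53 and 0.06, with Mutant113A at 6.21, 4.93 and 8.90. For each of them Mutant097B was the lowest of the mutant arrays, hair loss skin included, and both Wild001 arrays were lower still. In Mutant113 the largest difference among genes above background on both arrays was that of Srrt, at 5.29 in B against -0.76 in A, while the other 6 arrays of the series lay between -1.49 and -0.62. Keratins of stressed epidermis were high in Mutant113B as well, with Krt16 at 5.94, Krt6a at 4.20 and Krt6b at 4.15. The other 5 arrays of normal skin were at 3.32, 2.17 and 2.14 or below. Hair loss skin lay near Mutant113B for these 3 genes. They read 6.26, 4.09 and 4.59 in Mutant097S and 5.76, 3.95 and 3.70 in Mutant113S. In Wild001, Defb8, a defensin gene, was at 6.99 in A and 0.88 in B, in Mutant097 at 6.91 and 3.26, and in Mutant113 it was at the floor on both arrays. Rasa4 was at -0.60 in Wild001A and between 2.26 and 2.85 on the other 5 arrays.

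**Figure D5:**
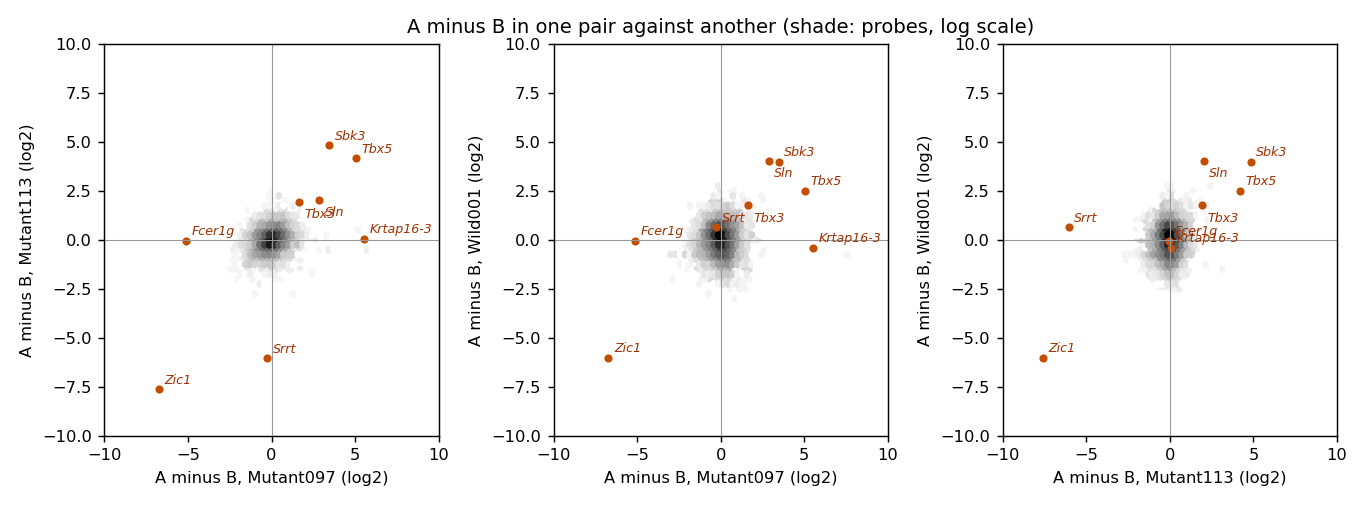
A minus B (log2) of the 18866 tested probes with a gene symbol in 1 pair against another, with shade for the number of probes on a log scale and 8 named genes in orange. Zic1, Tbx5, Sbk3 and Sln lie far out along the diagonal in each panel, and Tbx3 lies along it nearer to the centre (1.62 to 1.94). Krtap16-3 and Fcer1g lie far out only along the Mutant097 axis, and Srrt only along the Mutant113 axis.

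Whether the letters differed in another way in mutants than in the wild type was tested by an interaction of letter and genotype, which had 1 residual degree of freedom. At an adjusted p under 0.05 limma called 0 probes (0% of 29563), with 0.243 as the smallest adjusted p, and 5473 (18.5%) were at an unadjusted p under 0.05. With the normexp correction 7689 were called, with 23.5 prior degrees of freedom against 2.23 in the main setting. For Tbx3, measured on all 6 arrays, the interaction (mutant minus wild type) was 0.03 (limma adjusted p = 0.959). With 1 wild type pair, genotype and that pair cannot be told apart.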

How the data were processed

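RNA of mouse skin was hybridised to single-colour Agilent SurePrint G3 Mouse GE 8x60K arrays, 1 per sample. Per the file headers, Agilent Feature Extraction 11.5.1.1 corrected the intensity of each spot for background and replaced low values by a positive surrogate. The authors' deposited matrix holds log2 values, which lay within 0.01 of the log2 of that intensity after a shift per array. Here the log2 intensity was averaged for each probe, and its array's 75th percentile was subtracted. Control spots and spots flagged as outliers were left out. Probes well above background on at least 2 of the 6 arrays were tested (29563, of which 18866 had a symbol from a RefSeq table), with the probe of highest mean level for each gene.

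limma 3.58.1 in R 4.3.3 fitted title number and letter to the 6 arrays, with Benjamini-Hochberg adjustment over all probes. The number entered as a block because A and B samples of a number deviated together from their letter means (r of 0.42, 0.80 and 0.66 within numbers and -0.66 to -0.02 across them). The deviations within a letter cancel out, so the values across numbers add no separate support. The labels do not state a pairing. The fit was tested on simulated data. Number of arrays limits the precision. Named genes were those called, the 10 largest differences in each direction on all 6 arrays with the same sign in all 3 pairs, the 3 largest in each direction in each pair, position genes above background on all 6 arrays, and up to 5 bright members of other lists; further members were named for description after their values were seen. Members and lists were chosen with earlier results of these data known. A gene not above background in a group has only a bound, computed against the lowest signal among probes above background on each array or the probe's own if higher. Alternatives were no block, quantile normalization, normexp, the deposited matrix, other filters, all 8 arrays, other moderation, and leaving out each pair. The files hold no mean signal column, so normexp (offset 50) used the median signal.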

Additional observations from a re-analysis of the deposited data

Results flagged for a closer look

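Of 28 gene lists with at least 4 genes tested, 8 had a median A minus B on the same side of 0 in both mutant pairs and on the other side in the wild type pair. Over all 14550 genes tested the medians had the same pattern, at -0.005 in Mutant097, -0.02 in Mutant113 and 0.13 in Wild001. How many lists would show it without any difference was not computed. The difference between genotypes was not tested for the lists, and with 1 wild type pair it cannot be told apart from a difference between pairs. The widest gap was in the proliferation genes. Their median was -0.73 in Mutant097, -0.48 in Mutant113 and 0.72 in Wild001, with 0 of 9 genes higher in A in each mutant pair and 9 of 9 in Wild001. Mki67, a marker of cycling cells, was lower in A by 0.73 and 0.39 in the mutants and higher by 0.46 in Wild001. Top2a followed with -0.67, -0.45 and 1.12.

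For dermal matrix genes the medians were 0.21 and 0.18 in the mutant pairs and -0.28 in Wild001, where Col1a1, the main fibrillar collagen chain, differed by -0.97. For genes of T and NK cells they were 0.56 and 0.13 against -0.26, and for brown fat genes -0.54 and -0.47 against 0.25. The list for sole, tail and mouth epithelium had -0.23 and -0.56 against 0.22. Position genes other than Hox had 0.02 and 0.32 against -0.15, clock genes 0.12 and 0.41 against -0.080, and follicle stem cell genes 0.28 and 0.02 against -0.027.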

How the results depend on the processing

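The count of probes called was 0 in the main setting and also without the replicate block, with quantile normalization, the deposited matrix, no filter, the filter on all 6 arrays and the fit to all 8 arrays. It was 27 with normexp and 4 with trend and robust moderation, an alternative chosen after seeing the data. Prior degrees of freedom were 18.8 and 4.23 in these settings, against 2.69 in the main one. The cause of the higher counts was not tested. The 4 were Zic1, Sbk3, Actc1 and Serpinb6d. Leaving out each pair gave 0 to 1 called, the 1 being Zic1 without Mutant113. The count at an unadjusted p under 0.05 was 543 without the block, 782 with normexp and 1028 to 2587 when a pair was left out, the highest without Wild001. For the interaction, 7689 were called with normexp. The block leaves differences as they are and changed no call. The melanocyte median was -0.64 with normexp. With a pair left out, list medians ran from -0.13 to 0.23 for dermal matrix, -0.19 to -0.025 for Schwann cells, -0.59 to 0.28 for blood and endothelium and 0.17 to 0.39 for antigen presentation. Small differences turned sign. Under quantile normalization Acta1 was 0.022, Myh4 0.035 and Hoxa7 -0.011, and under normexp Myh4 was 0.037 and Dio2 -0.21. With a pair left out Acta1 ran from -0.28 to 0.38, Myh4 from -0.12 to 0.065, Hoxa7 from -0.12 to 0.16, Cidea from -0.015 to 0.60, Cox8b from -0.42 to 0.26, Dio2 from -0.55 to 0.35, Meis1 from -0.10 to 0.14 and Tbx15 from -0.16 to 0.14. Signal over background limits Zic4, Tbx4, Tbx5 and Hand2 to bounds.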

Other observations

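Haemoglobin signal was higher in A in Mutant113 (Hba-a1 at 7.94 against 6.97) and lower in A in Mutant097 (5.93 against 6.67) and Wild001 (5.55 against 6.28). Kdr, a receptor of blood vessel endothelium, was at 4.77 in Wild001B and between 2.90 and 4.14 on the other 5 arrays. Of 7 smooth muscle genes 3 were higher in A in all 3 pairs and 0 lower, with a median of 0.29, and Cnn1, calponin, differed by 0.90, 0.84 and 0.09. Of 11 sebaceous gland genes 3 were higher in all pairs and 0 lower, with a median of 0.21, and Awat1, a wax synthase gene, differed by 0.89, 0.03 and 0.98. The 8 Schwann cell genes had a median of -0.10, with Mbp, myelin basic protein, between 2.51 and 2.86 on the 6 arrays.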
